A study of Homo sapiens with 6 samples.

Results

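The miR-106b/25 cluster comprises 6 mature miRNAs, the 5p and 3p arms cut from the hairpins of the genes MIR106B, MIR93 and MIR25. The members were chosen by name, as the rows of the array files that are not control spots and carry 1 of these 6 miRNA names. All 6 were found, among 2549 human miRNAs on the array. They were measured in exosomes, small vesicles that cells release, precipitated with ExoQuick-TC from the culture medium of H9, a line of human embryonic stem cells. Each of 3 experiments had 1 Agilent SurePrint G3 miRNA array (1 colour, Cy3) for each of 2 colony types of that line, called substate 1 and substate 2, and the comparison asked which miRNAs differed between them. In the study's definition, substate 1 colonies look typical, stain strongly for R-10G, an epitope of pluripotent cells, and hardly for vimentin, a mesenchymal marker. Substate 2 colonies have wide gaps between cells, weaker R-10G staining and clear vimentin staining. Substate 1 cells were at passages 41, 46 and 50 in experiments 1, 2 and 3, and substate 2 cells at passages 52, 61 and 65. All cells came from 1 line and grew on Matrigel in TeSR-E8, after a move from vitronectin. The labelled RNA was 72.4, 100 and 51.4 ng in experiments 1, 2 and 3, the same for both substates. Substate 2 always had the higher passage number, so that substate and passage cannot be told apart. A different content of the exosomes of each cell and a different share of cells that release them cannot be told apart either. The methods do not say how the medium of the substates was kept apart.

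The 3 hairpins lie in an intron of MCM7, which encodes a subunit of the helicase that licenses DNA replication, and are transcribed with it under E2F control. A miRNA pairs mainly through its seed, the bases near its 5′ end, with sites in mRNAs, which are then repressed. Known targets of the cluster include the cell cycle inhibitor CDKN1A, the cell death factor BCL2L11 and the receptor TGFBR2, and its miRNAs promote proliferation and the reprogramming of fibroblasts to pluripotency. The clusters miR-17/92a-1 and miR-106a to miR-363 are its paralogs, with shared seeds.

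The mature sequences of the 6 members show which of them can share targets. They are given 5′ to 3′ from RefSeq (GRCh38.p14), with the seed, bases 2 to 8, in capitals. All 6 lie on the minus strand of chromosome 7 inside MCM7, and the MIR106B and MIR25 hairpins with everything between them span 515 bases.
hsa-miR-106b-5p: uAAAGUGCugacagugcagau
hsa-miR-93-5p: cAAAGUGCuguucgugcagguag
hsa-miR-25-3p: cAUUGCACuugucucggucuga
hsa-miR-106b-3p: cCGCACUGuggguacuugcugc
hsa-miR-93-3p: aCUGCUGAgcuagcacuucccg
hsa-miR-25-5p: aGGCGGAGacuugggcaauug
The positions are chr7:100094043-100094063 for hsa-miR-106b-5p, chr7:100093815-100093837 for hsa-miR-93-5p and chr7:100093571-100093592 for hsa-miR-25-3p. Their opposite arms lie at chr7:100094002-100094023 for hsa-miR-106b-3p, chr7:100093777-100093798 for hsa-miR-93-3p and chr7:100093610-100093630 for hsa-miR-25-5p. hsa-miR-106b-5p and hsa-miR-93-5p have the same seed and the same base at 16 of 21 positions counted from the 5′ end. hsa-miR-25-3p has another seed and matches hsa-miR-106b-5p at 5 of 21 positions. The seeds of the 3 opposite arms were found in none of the other array miRNAs with a sequence in the table (2248 of 2549 matched by name).

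A set of miRNAs from other loci carries the same seeds, and is shown because these miRNAs are set against the members further on. The capitals again mark bases 2 to 8. Those with the seed of hsa-miR-106b-5p and hsa-miR-93-5p that were detected are the following.
hsa-miR-17-5p: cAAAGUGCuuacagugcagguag
hsa-miR-20a-5p: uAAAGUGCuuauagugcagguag
hsa-miR-20b-5p: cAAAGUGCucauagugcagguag
hsa-miR-519d-3p: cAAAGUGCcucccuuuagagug
Those with the seed of hsa-miR-25-3p that were detected are the following.
hsa-miR-92a-3p: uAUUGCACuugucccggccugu
hsa-miR-92b-3p: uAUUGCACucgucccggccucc
hsa-miR-363-3p: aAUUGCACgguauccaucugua
hsa-miR-367-3p: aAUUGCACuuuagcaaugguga
hsa-miR-17-5p and hsa-miR-20a-5p each match hsa-miR-106b-5p at 18 of 21 positions, hsa-miR-20b-5p at 17 and hsa-miR-519d-3p at 10. hsa-miR-92a-3p matches hsa-miR-25-3p at 18 of 22 positions and hsa-miR-92b-3p at 16, against 12 for hsa-miR-367-3p and 9 for hsa-miR-363-3p. How far a probe also binds such close relatives was not tested.

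The arrays differed in overall brightness, always in the same direction within an experiment. The 99th percentile of the total signal over all human miRNAs was 476 and 269 intensity units for substates 1 and 2 in experiment 1. It was 355 and 282 in experiment 2, and 180 and 125 in experiment 3. Substate 2 was thus dimmer at this percentile by a log2 difference of −0.82, −0.33 and −0.52, with equal labelled RNA. The number of detected miRNAs was 594 and 527 in experiment 1, 465 and 470 in experiment 2, and 332 and 310 in experiment 3. Each signal was divided by the percentile of its array. The study also scaled by a percentile, but its lower limit for signals and its correction for the amount of RNA were not applied here. Values below 0.431% of the percentile were replaced by this floor on every array, and the log2 of the result was used, which puts the floor at −7.86. All differences below are substate 2 minus substate 1.

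hsa-miR-106b-5p, the arm of MIR106B that usually enters the silencing complex, was detected on all 6 arrays. Its total signal in experiments 1, 2 and 3 was 66.0, 42.8 and 30.8 in substate 1. In substate 2 it was 58.0, 86.0 and 26.7. Unscaled, it was thus higher in substate 2 in experiment 2 alone. On the log2 scale after scaling, its values were −2.85, −3.05 and −2.54 in substate 1 and −2.21, −1.71 and −2.23 in substate 2. The scaled values of substate 2 were all above those of substate 1, with 0.32 between the nearest arrays, and experiment 2 held both the lowest and the highest value.

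hsa-miR-93-5p, which shares that seed and thereby many predicted targets, was also detected on all 6 arrays. Its total signal in experiments 1, 2 and 3 was 166, 101 and 51.1 in substate 1, and 107, 144 and 47.5 in substate 2. Its scaled log2 values were −1.52, −1.81 and −1.81 in substate 1 and −1.33, −0.97 and −1.40 in substate 2. The scaled values did not overlap, by 0.13, with the substate 2 array of experiment 2 on top, whereas the unscaled signals overlapped.

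hsa-miR-25-3p, the member of the miR-92 seed family, was detected on all 6 arrays too. Its total signal in experiments 1, 2 and 3 was 148, 110 and 46.8 in substate 1, and 88.0, 125 and 41.4 in substate 2. Its scaled log2 values were −1.69, −1.69 and −1.94 in substate 1 and −1.61, −1.17 and −1.60 in substate 2. The substates did not overlap after scaling, but only 0.075 lay between the nearest arrays, both from experiment 1, and without scaling they overlapped.

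The opposite arms, which are mostly degraded after the hairpin is cut, gave little or no signal. hsa-miR-106b-3p was detected on all 6 arrays, with total signals of 2.06, 1.83 and 0.690 in substate 1 and 1.45, 1.87 and 0.632 in substate 2. Its scaled log2 values were −7.85, −7.60 and −7.86 in substate 1 and −7.54, −7.23 and −7.63 in substate 2. These values lie close to the floor, which was reached in substate 1 of experiment 3, and the lowest substate 2 value minus the highest substate 1 value was −0.031, an overlap. hsa-miR-93-3p was detected on 3 arrays, at 0.803 and 0.522 in substates 1 and 2 of experiment 1 and at 0.805 in substate 1 of experiment 2. All of its scaled values were at the floor, so that it has no measured difference. hsa-miR-25-5p was detected on 0 arrays and was not tested.

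**Figure D1:**
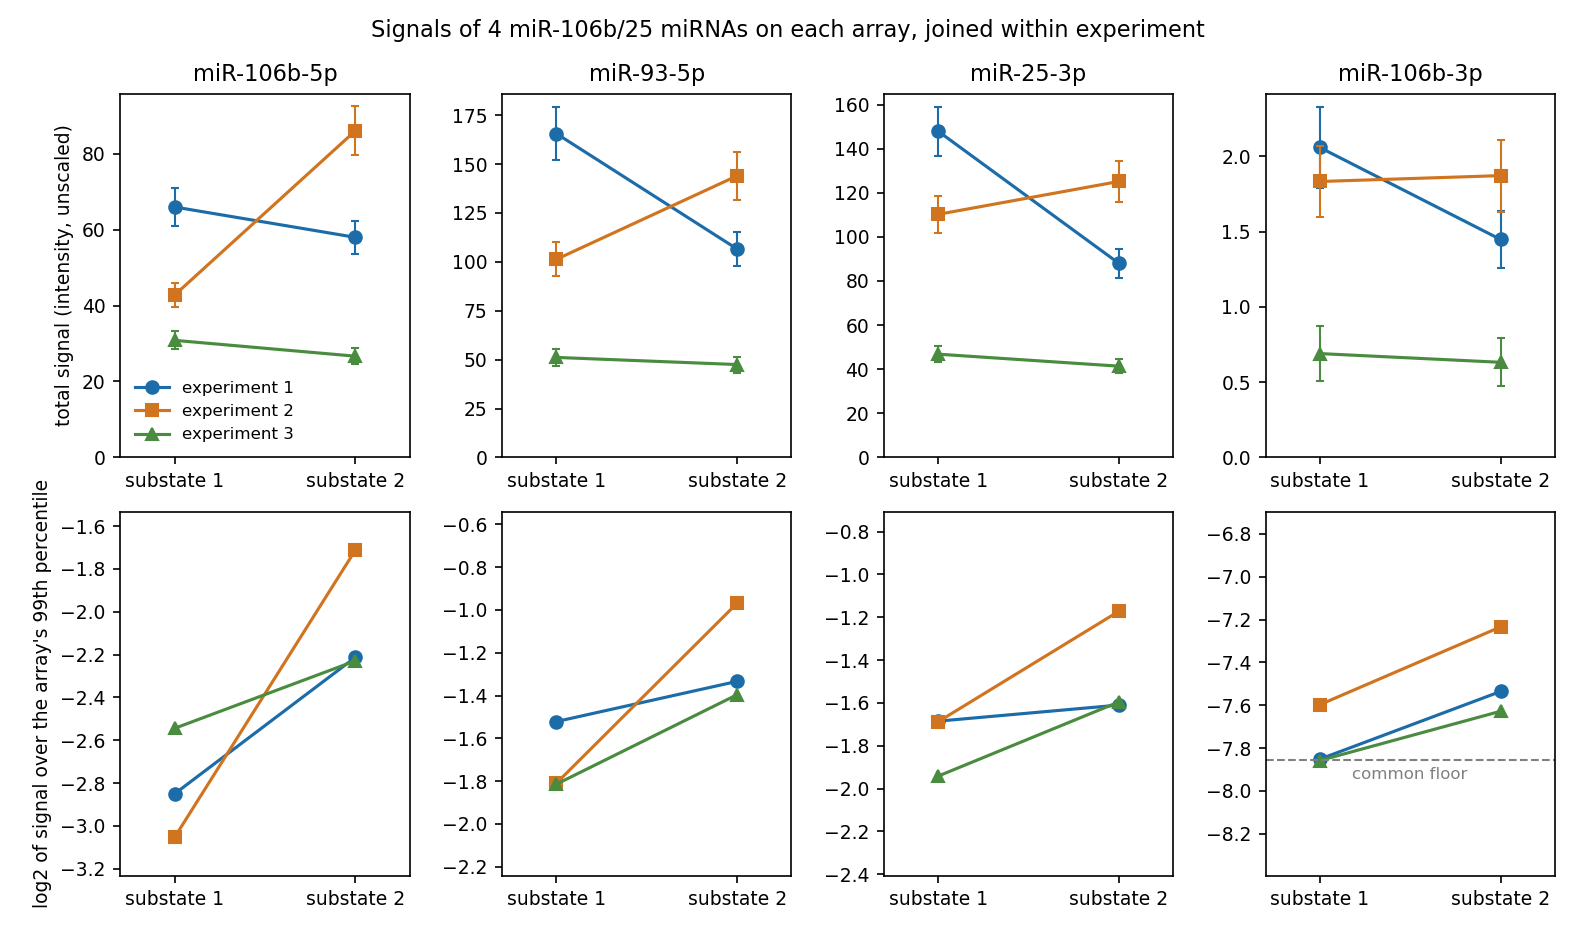
Total signal (top, intensity, with the error given by the scanner software) and log2 of the signal over the array's 99th percentile (bottom) of 4 members, for substates 1 and 2, with a line for each experiment. The unscaled signals are lower in substate 2 in experiments 1 and 3 and higher in experiment 2, and the scaled values are higher in substate 2 in all 3 experiments; the dashed line is the floor of −7.86.

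Relative to the 99th percentile of the array, the mean signal of hsa-miR-106b-5p was 1.70-fold in substate 2, that of hsa-miR-93-5p 1.40-fold and that of hsa-miR-25-3p 1.24-fold, with 95% intervals that include no difference, and without scaling the last 2 were lower on average. The log2 difference of hsa-miR-106b-5p was 0.76 ± 0.26 (SE, n = 3 experiments; limma adjusted p = 0.223), from −2.82 ± 0.26 (SD) in substate 1 to −2.05 ± 0.29 in substate 2. It was 0.64, 1.34 and 0.32 in experiments 1, 2 and 3, and its 95% interval ran from −0.048 to 1.58. hsa-miR-93-5p differed by 0.48 ± 0.17 (SE, n = 3; limma adjusted p = 0.236), with 0.19, 0.84 and 0.42 in the 3 experiments. hsa-miR-25-3p differed by 0.31 ± 0.13 (SE, n = 3; limma adjusted p = 0.263), with 0.075, 0.52 and 0.35. hsa-miR-106b-3p differed by 0.30 ± 0.078 (SE, n = 3; limma adjusted p = 0.203), with 0.32, 0.36 and 0.23, and its unadjusted p was 0.0299. The floor in substate 1 makes the value of experiment 3 a lower bound, and its probe with signal gave 0.40 there without the floor. The SD of the difference over experiments was 0.52, 0.33 and 0.22 for the 3 main arms and 0.068 for hsa-miR-106b-3p. The scanner software's errors, which cover the measurement alone, gave an uncertainty of 0.152 to 0.175 for the log2 difference of a main arm in an experiment and of 0.26 to 0.524 for hsa-miR-106b-3p.

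For a call, limma's adjusted p had to be below 0.05 with a change of 2-fold or more, and 0 of the 5 tested members met this. The background was 0% higher and 0% lower, since 0 of the 474 tested miRNAs (those detected on at least 3 arrays) were called, with adjusted p of 0.139 or more. Without adjustment, 1 of 5 members was higher at p below 0.05, against 9.7% of tested miRNAs higher (46) and 13.3% lower (63). A paired test of each miRNA by itself also called 0 miRNAs after adjustment. Of the 5 tested members, 4 were higher in substate 2 in all 3 experiments after scaling, against 21.1% of the 474 and 30.1% of the 289 miRNAs detected on all arrays, and 1 of the 4 stayed higher on average without scaling. In 3 of 5, every scaled substate 2 value lay above every substate 1 value, against 11.8% of the 474 and 17.6% of the 289, and 14.1% of the 474 were separated in the other direction. Members share a transcript and were picked by name as a cluster, so that these counts are not counts of independent miRNAs. The 5 tested members had a median difference of 0.31 (experiment 1, 0.19; experiment 2, 0.52; experiment 3, 0.32), and all 474 had −0.012. With hsa-miR-93-3p left out, which is at the floor, the median of the other 4 was 0.40. Of the 279 tested miRNAs above the floor on all arrays, hsa-miR-106b-5p was in place 32 by difference from the highest, hsa-miR-93-5p in place 66 and hsa-miR-25-3p in place 85.

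**Figure D2:**
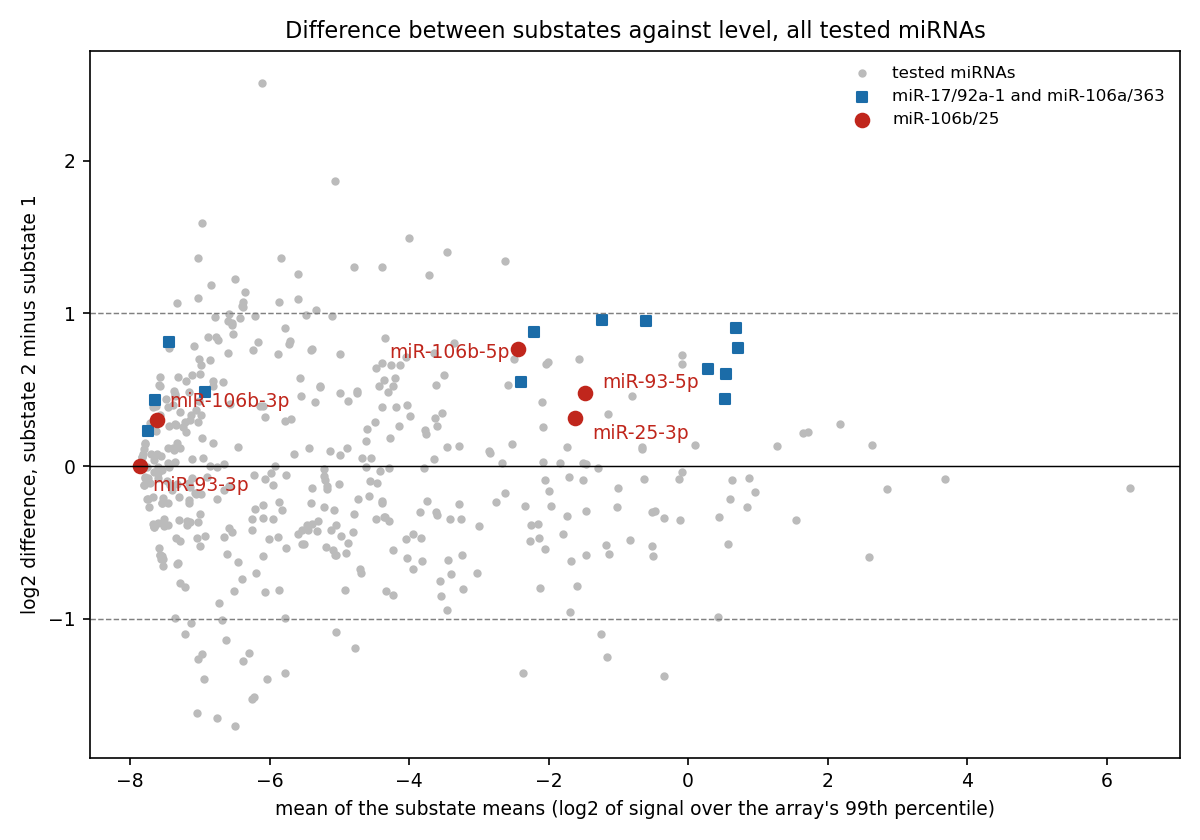
Log2 difference between substates against the mean scaled log2 level for 474 tested miRNAs, with the 5 tested members in red, 13 tested miRNAs of the paralog clusters as blue squares and dashed lines at a 2-fold difference. The main arms lie between 0.31 and 0.76, above the median of −0.012 and below the 2-fold line; without scaling hsa-miR-93-5p, hsa-miR-25-3p and hsa-miR-106b-3p were lower in substate 2.

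The direction of these differences rests on the scaling. Divided by the labelled amount in place of the percentile, hsa-miR-106b-5p still differed by 0.20, but hsa-miR-93-5p differed by −0.078, hsa-miR-25-3p by −0.25 and hsa-miR-106b-3p by −0.20. In that setting the median of all tested miRNAs was −0.51, and relative to it the members were higher by 0.72, 0.43, 0.26 and 0.31 in the same order. The 99th percentile over the 289 miRNAs detected on all arrays moved that median to 0.18, and the deposited values to −0.12. Over the 5 scalings computed from the scanner signals, the differences relative to the median of all tested miRNAs ran from 0.72 to 0.90 for hsa-miR-106b-5p and from 0.43 to 0.64 for hsa-miR-93-5p. They ran from 0.26 to 0.51 for hsa-miR-25-3p and from 0.31 to 0.35 for hsa-miR-106b-3p. The normexp background correction (offset 50) moved the median of all tested miRNAs to 0.33. Relative to that median hsa-miR-106b-5p was higher by 0.37, hsa-miR-93-5p by 0.17 and hsa-miR-106b-3p by 0.065, and hsa-miR-25-3p differed by −0.049. Which of the dimmer signal in substate 2 and the scaled difference reflects the exosomes was not tested.

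**Figure D3:**
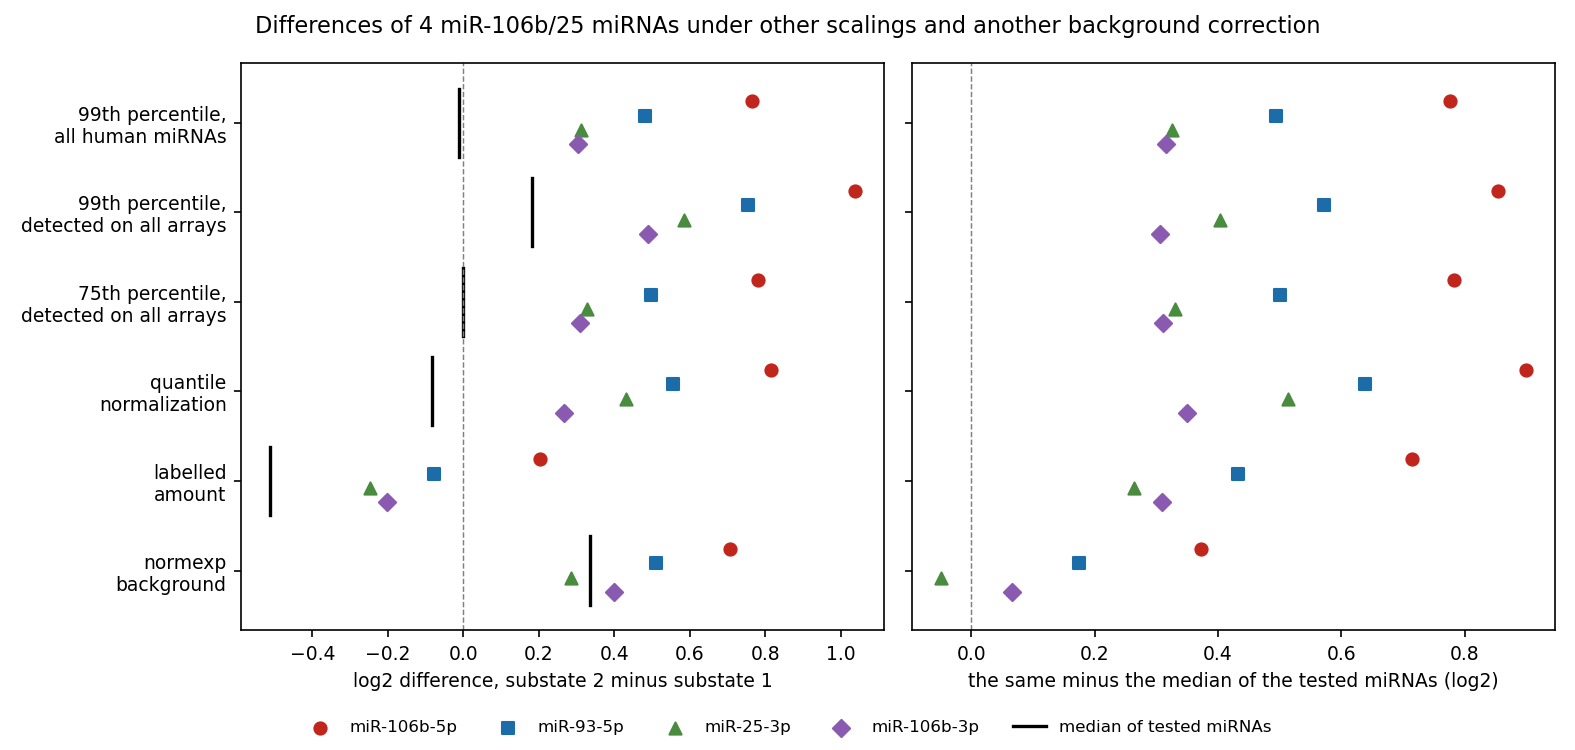
Log2 difference of 4 members under 5 scalings and a second background correction (left), with the median of all tested miRNAs as a black bar, and the same differences minus that median (right). Divided by the labelled amount, 3 of the 4 fall below 0 and the median is −0.51; relative to the median all 4 are above 0 under the 5 scalings, and hsa-miR-25-3p is at −0.049 with normexp.

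The array carries several probes for each member. Each main arm has 2 probes with 10 spots each, all of them over 3 times their error on all 6 arrays. For hsa-miR-106b-5p the probes differed between substates by 0.77 and 0.76 on average after scaling. For hsa-miR-93-5p they gave 0.48 and 0.50, and for hsa-miR-25-3p 0.29 and 0.36. The order of the experiments was the same for both probes of each main arm, with experiment 2 highest. The opposite arms have 4 probes with 5 spots each, and their signal came from 1 probe. That probe exceeded 3 times its error on 6 arrays for hsa-miR-106b-3p and on 3 arrays for hsa-miR-93-3p, and 0 of the 4 probes of hsa-miR-25-5p did so on any array. 0 spots of the 50980 for human miRNAs were saturated on any array.

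**Figure D4:**
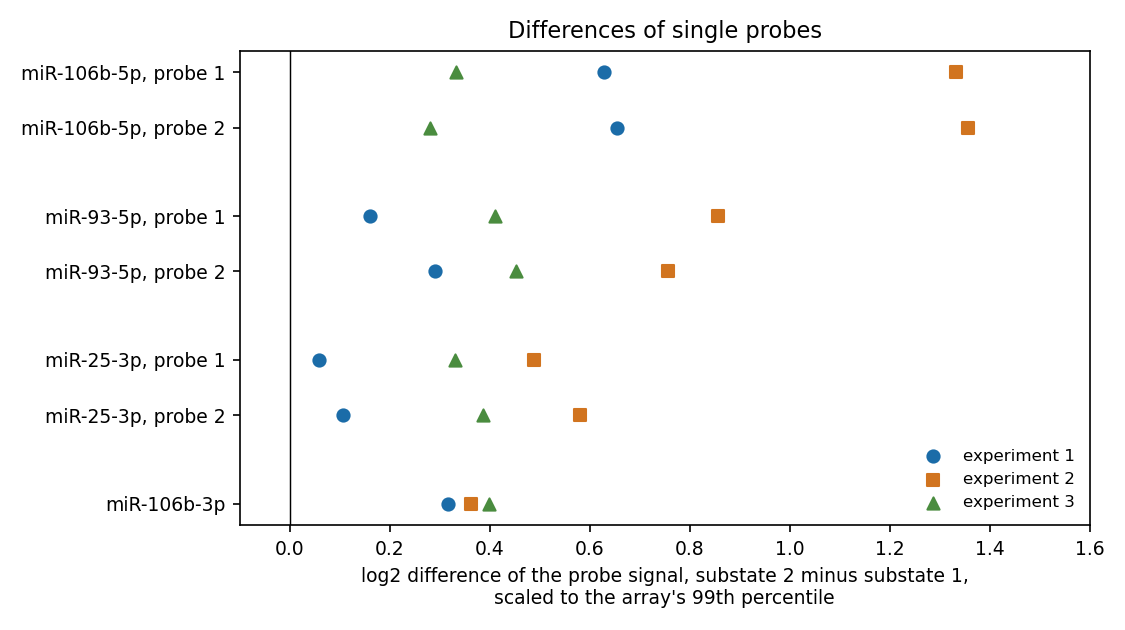
Log2 difference of single probes between substates in each experiment, for probe signals over the array's 99th percentile. Both probes of each main arm give the largest difference in experiment 2 (1.33 and 1.36 for hsa-miR-106b-5p), and the 1 probe of hsa-miR-106b-3p with signal lies between 0.32 and 0.40; unscaled, all but those of hsa-miR-106b-5p were lower on average in substate 2.

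The members did not move in strict proportion, but no difference between them could be called. The difference of hsa-miR-106b-5p exceeded that of hsa-miR-93-5p by 0.45 and 0.50 in experiments 1 and 2 and fell short of it in experiment 3 (−0.10). The mean was 0.28 ± 0.34 (SD, n = 3 experiments; two-sided exact sign-flip permutation p = 0.5). Against hsa-miR-25-3p the excess was 0.56, 0.83 and −0.031 (exact p = 0.5). hsa-miR-93-5p exceeded hsa-miR-25-3p in all 3 experiments, by 0.11, 0.32 and 0.071 (mean 0.17 ± 0.14 SD, exact p = 0.25). Between the arms of the MIR106B hairpin, hsa-miR-106b-5p exceeded hsa-miR-106b-3p by 0.32, 0.98 and 0.085 (exact p = 0.25). The sign in experiment 3 rests on the floor, since unscaled the arms differed there by −0.21 and −0.13, in the reverse order. With 3 experiments the smallest two-sided p is 0.25, so that no such test can reach 0.05, and adjusted over the 4 pairs each p was 0.5. The comparisons among the 3 main arms, which lie above the floor, do not depend on a factor that scales an array as a whole, whereas that with hsa-miR-106b-3p does.

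Of the other miRNAs with the seed of hsa-miR-106b-5p and hsa-miR-93-5p, 0 were called by limma, and 1 was higher and 1 lower at an unadjusted p under 0.05, against 9.7% and 13.3% of all 474. hsa-miR-20b-5p differed by 0.77, hsa-miR-17-5p by 0.63 and hsa-miR-20a-5p by 0.60 after scaling (limma adjusted p = 0.215, 0.241 and 0.284), and by 0.21, 0.074 and 0.040 without it. These 3 of 4 tested were higher in all 3 experiments after scaling, against 21.1% of all 474. hsa-miR-519d-3p, from the placental cluster on chromosome 19, differed by −1.62 ± 0.11 (SE, n = 3; limma adjusted p = 0.139), with −1.58, −1.47 and −1.80 in experiments 1, 2 and 3. The median of these 4 was 0.62 (0.31, 1.23 and 0.31 in experiments 1, 2 and 3), or 0.057 without scaling and 0.31 without experiment 2. hsa-miR-519d-3p was at the floor in substate 2 of experiments 2 and 3, so that these 2 values are bounds, and with normexp its difference was 0.22, under that setting's median. hsa-miR-526b-3p, with the same seed, was detected on 0 arrays. hsa-miR-106b-5p exceeded hsa-miR-519d-3p by 2.22 in experiment 1 and by at least 2.81 and 2.12 in experiments 2 and 3, where the floor sets a bound, and differed from hsa-miR-17-5p by 0.26, 0.16 and −0.036 and from hsa-miR-20b-5p by 0.17, −0.0070 and −0.20. It exceeded hsa-miR-20a-5p by 0.39, 0.056 and 0.049.

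In the seed group of hsa-miR-25-3p (0.31), 0 miRNAs were called by limma and 2 were higher at an unadjusted p under 0.05, against 9.7% of all 474. hsa-miR-363-3p differed by 0.95 ± 0.19 (SE, n = 3; limma adjusted p = 0.169), hsa-miR-92b-3p by 0.76, hsa-miR-92a-3p by 0.44 and hsa-miR-367-3p by 0.21. The last was higher in experiment 2 alone (−0.37, 1.02 and −0.0016 in experiments 1, 2 and 3). Without scaling, hsa-miR-92a-3p (−0.12) and hsa-miR-367-3p (−0.35) were lower in substate 2. The median of the 4 was 0.60, or 0.039 without scaling, and hsa-miR-32-5p was detected on 0 arrays. hsa-miR-25-3p fell short of hsa-miR-363-3p in all 3 experiments (−0.65, −0.86 and −0.40; mean −0.64 ± 0.23 SD) and of hsa-miR-92b-3p likewise (−0.26, −0.16 and −0.92). Against hsa-miR-92a-3p the 3 values were 0.024, −0.033 and −0.38, and against hsa-miR-367-3p they were 0.45, −0.50 and 0.35. Pairs with hsa-miR-93-5p were not tested. Of the 8 pairs of hsa-miR-106b-5p or hsa-miR-25-3p and a miRNA of the same seed, 4 kept 1 sign in all 3 experiments, that with hsa-miR-519d-3p as a bound, each with the smallest exact sign-flip p of 0.25 (0.5 adjusted over the 8 pairs).

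The median differences of the paralog clusters over the 3 experiments were 0.55 and 0.85, against 0.31 for the tested members, and the clusters were not tested against each other. For miR-17/92a-1 the order turned without experiment 2 (0.26, against 0.27 for the members), and in experiment 1 the medians were 0.18 and 0.19. All substate 1 values of its miRNAs hsa-miR-20a-3p and hsa-miR-19b-1-5p were at the floor. Without experiment 2 and hsa-miR-93-3p the members had 0.29. Among the 7 miRNAs of miR-17/92a-1 detected on all arrays, hsa-miR-17-5p held the middle place without experiment 2. Its 0.38 and 0.35 in experiments 1 and 3 both exceed 0.29, so that this turn appears only with floor-limited miRNAs of that cluster kept. For the other paralog cluster the median without experiment 2 was 0.49. Without hsa-miR-93-3p, which the floor holds at 0, the median of the members over the 3 experiments was 0.40. Among miRNAs detected on all 6 arrays the medians were 0.40 for the members, 0.60 for miR-17/92a-1 and 0.85 for the other cluster. In miR-17/92a-1, 9 of 12 miRNAs were tested, 6 were higher in all 3 experiments after scaling and 3 did not overlap between substates, with single differences of 0.23 to 0.96. The lowest, that of hsa-miR-20a-3p, comes from experiment 2 alone, since both substates were at the floor in experiments 1 and 3. In the cluster from miR-106a to miR-363, 11 of 12 were found on the array by name (hsa-miR-106a-5p was not) and 6 were tested. All of these were higher in all 3 experiments, 4 without overlap, with single differences of 0.44 to 0.95. Among them hsa-miR-106a-3p (0.81) was at or close to the floor in substate 1. Over all 474 tested miRNAs, 21.1% were higher in all 3 experiments and 11.8% without overlap, and over the 289 detected on all arrays 30.1% and 17.6%. Of these, hsa-miR-19b-3p and hsa-miR-92a-3p count in both lists, since their genes have copies in both. Together 0 of the 13 tested paralogs were called, and 2 had an unadjusted limma p under 0.05, hsa-miR-363-3p and hsa-miR-20b-5p, against 9.7% of the 474. Without scaling, 10 of the 13 were still higher in substate 2, with a median of 0.21, against 1 of the 5 tested members. The 10 include hsa-miR-20a-3p (0.087), hsa-miR-19b-1-5p (0.30) and hsa-miR-106a-3p (0.70), whose scaled values were at or close to the floor in substate 1. In that setting all 13 and all 5 lay above the median of all tested miRNAs (−0.51). The median of the 13 was 0.25, 1.32 and 0.42 in experiments 1, 2 and 3, so that experiment 2 gave the largest value here as for the 3 main arms. Leaving experiment 2 out took the difference of hsa-miR-106b-5p from 0.76 to 0.48 and that of hsa-miR-93-5p from 0.48 to 0.30. On the slide that held experiments 2 and 3, the mean differences of hsa-miR-106b-5p, hsa-miR-93-5p and hsa-miR-25-3p were 0.83, 0.63 and 0.43, and on the slide of experiment 1 they were 0.64, 0.19 and 0.075.

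**Figure D5:**
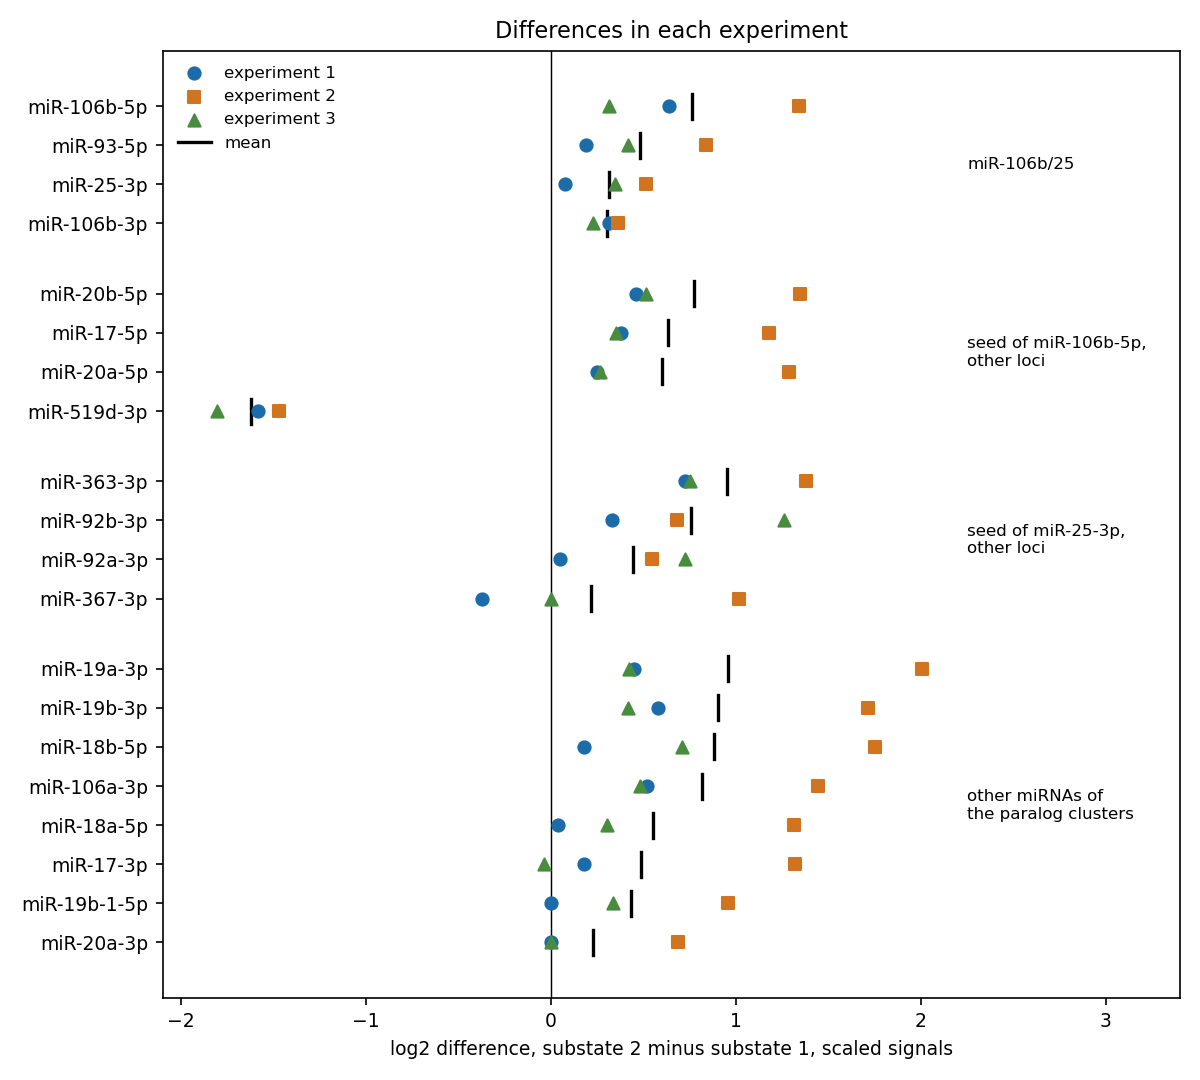
Scaled log2 differences between substates in each experiment (symbols) and their mean (bars) for 4 members, the tested miRNAs that share a seed with them, and the other tested miRNAs of the paralog clusters. Experiment 2 gives the largest value for the 3 main arms (0.52 to 1.34), and hsa-miR-519d-3p alone is lower in all 3 experiments; without scaling, the means of 3 members, hsa-miR-92a-3p, hsa-miR-367-3p, hsa-miR-17-3p, hsa-miR-18a-5p and hsa-miR-519d-3p are below 0.

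The miRNAs most like the cluster over the 6 arrays were found among 285 others detected on all arrays. The measure was the root mean square difference between centred log2 values and the mean centred profile of the 4 members detected on all arrays. That profile was −0.19, −0.25 and −0.25 in substate 1 and 0.11, 0.51 and 0.073 in substate 2. The closest were hsa-miR-151b (0.104), hsa-miR-107 (0.109), hsa-miR-320a (0.123), hsa-miR-103a-3p (0.126) and hsa-miR-151a-3p (0.140), against a median of 0.479 over the 285. The members themselves lay at 0.0775 (hsa-miR-93-5p), 0.109 (hsa-miR-25-3p), 0.130 (hsa-miR-106b-3p) and 0.216 (hsa-miR-106b-5p) from it. All 5 of these miRNAs lay closer to the profile than hsa-miR-106b-5p did, but they were picked as the closest by this same measure. The measure also counts the size of a difference, which among the 4 members was largest for hsa-miR-106b-5p.

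Markers of the cell type were present beside the cluster. Of 8 miRNAs that mark embryonic stem cells, 5 were detected on all arrays, namely hsa-miR-302a-3p, hsa-miR-302b-3p, hsa-miR-302c-3p, hsa-miR-302d-3p and hsa-miR-367-3p. hsa-miR-371a-3p was detected on 2 arrays, hsa-miR-373-3p on 1 and hsa-miR-372-3p on 0. The summed signal of the list was 1175%, 854% and 1397% of the 99th percentile in substate 1 and 813%, 1209% and 1002% in substate 2, with hsa-miR-367-3p the most abundant by scaled signal averaged over the 6 arrays, which does not hold in substate 1 by mean log2. Signals of different probes are not strictly comparable. The tested markers had a median difference of −0.33, which was −0.54, 0.27 and −0.66 in experiments 1, 2 and 3, and −0.89 without scaling. It was −0.63 without experiment 2 and −0.14 without experiment 3. Of the 5 tested, 0 were lower in all 3 experiments, against 23.4% of all 474, and hsa-miR-367-3p was higher on average (0.21). The markers were not tested against the members. Of 6 miRNAs of differentiated cells, hsa-miR-145-5p was detected on 3 arrays below the floor, and hsa-miR-143-3p and 4 let-7 miRNAs on 0. Of 4 neural miRNAs, hsa-miR-9-5p and hsa-miR-9-3p were detected on 0 arrays, and hsa-miR-124-3p and hsa-miR-128-3p on 6. The summed neural signal was 3.15%, 2.93% and 2.93% of the 99th percentile in substate 1 and 3.50%, 6.25% and 3.57% in substate 2, with hsa-miR-124-3p the most abundant by that average. hsa-miR-124-3p differed by 0.58 ± 0.18 (SE, n = 3; limma adjusted p = 0.215), with 0.38, 0.99 and 0.37 in the 3 experiments, and by 0.019 without scaling. The median of hsa-miR-124-3p and hsa-miR-128-3p was 0.49, or −0.075 without scaling and 0.18 without experiment 2. hsa-miR-128-3p alone differed by −0.13, 1.22 and 0.088 in the 3 experiments, and the part of these miRNAs in the members' difference was not tested. Of 5 blood miRNAs only hsa-miR-486-5p was detected, on 3 arrays, with all substate 2 values at the floor. Its differences of −0.82 and −1.13 in experiments 1 and 2 are bounds (mean over experiments with normexp 0.32), and experiment 3 gives none, as it was not detected there. Of the other lists, 0 of 3 muscle miRNAs and 0 of 1 liver miRNA were detected.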

How the data were processed

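The deposited intensity values come from Agilent Feature Extraction, per the file headers version 12.0.3.2 for experiment 1 and 11.5.1.1 for experiments 2 and 3. It subtracts background, combines spots to a total signal per miRNA with an error, and marks detection, with no normalization between arrays. An undetected miRNA has a total signal of 0.1. The deposited log2 table of the authors was an alternative only. Its values equal log2 of the total signal over 1 factor per array, 1.21 to 1.61 times the 99th percentile computed here, and undetected signals were not raised to 1. Its column medians were −12.73, −12.06 and −11.37 in substate 1 and −11.77, −12.14 and −10.88 in substate 2, with no centring of miRNAs. How that factor, and so the scale, was derived is unknown.

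Scaled, floored log2 values of the miRNAs detected on at least 3 of 6 arrays were fitted in R 4.3.3 with limma 3.58.1, two-sided, blocked by experiment, and adjusted by Benjamini-Hochberg over all 474. Other steps used Python 3.11.15. The pairing rests on the labels' experiment numbers and the paired design of the study. Deviations from the substate means correlated within experiments 1, 2 and 3 at 0.674, 0.0307 and 0.517. The p-values rest on these experiments alone, whose number limits the precision. limma's SE and p-values are moderated, as each miRNA's spread over experiments is combined with a spread estimated from all 474. The SE of hsa-miR-106b-3p (0.078) thus exceeds its SD over experiments (0.068). Pairs of miRNAs were compared by exact sign-flip permutation over experiments. The fit was tested on simulated data with normal noise, no floor and differences larger than those of the members. Values cut at the floor and differences of the members' size were thus not covered. The text names the 6 members, the 2 paralog clusters, miRNAs that share a member's seed, the 5 miRNAs with the most similar profile and lists of cell type markers. Members and lists were chosen with earlier results of these data known. Alternatives were 4 other scalings, 2 other floors, mean processed spot signals, normexp background correction, the deposited values, other detection filters, other fits (no replicate block, slide as a block, trend with robust variances), the methods' paired test, calls without a fold minimum and each experiment left out. normexp used the median spot intensity, since no mean was given. A filter that keeps miRNAs exceeding the floor on 3 or more arrays was added after the values were seen.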

Additional observations from a re-analysis of the deposited data

How the results depend on the processing

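Of the 19 alternatives for a member's difference, 9 leave those of hsa-miR-106b-5p, hsa-miR-93-5p and hsa-miR-25-3p as they are by construction, and 7 that of hsa-miR-106b-3p. Over the alternatives hsa-miR-106b-5p ran from 0.20 to 1.04. hsa-miR-93-5p, hsa-miR-25-3p and hsa-miR-106b-3p reversed with the labelled amount in place of the percentile, to −0.078, −0.25 and −0.20. The members called were 0 under every alternative. The median difference of the tested members, 0.31, was 0.59 with the 99th percentile over miRNAs detected on all arrays, −0.078 with the labelled amount and 0.48 with signals under 1 set to 1. In the last setting the difference of hsa-miR-93-3p, which was under 1 on every array, comes from the scaling alone. The median of the other 4 was 0.44 there. Leaving out an experiment gave 0.27 to 0.43 for this median, 0.48 to 0.99 for hsa-miR-106b-5p, 0.30 to 0.63 for hsa-miR-93-5p, 0.21 to 0.43 for hsa-miR-25-3p and 0.27 to 0.34 for hsa-miR-106b-3p.

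The miRNAs called higher and lower, 0 and 0, were 1 and 2 with normexp, 5 and 2 among those detected on all 6 arrays and 7 and 6 among those exceeding the floor on 3 or more arrays, a filter added after the values were seen. Fewer miRNAs were tested under the last 2. With no replicate block, thus without the paired design, 0 were called higher and 1 lower, and the members' median stayed at 0.31. The methods' t-test was run on the scaled values with the common floor, thus without the study's lower limit for signals and its correction for RNA amount. It gave 0 after Benjamini-Hochberg adjustment, and 7 higher and 7 lower at an unadjusted p under 0.05 and at least 2-fold, with 0 members among them. The study itself, with its own processing, reported exosome miRNAs in both directions after correction, so that the 0 holds for the processing used here. With normexp the 4 measured members had limma adjusted p of 0.00812 (hsa-miR-106b-5p), 0.00977 (hsa-miR-106b-3p), 0.0133 (hsa-miR-93-5p) and 0.0374 (hsa-miR-25-3p) without reaching 2-fold. In that setting 61.4% of all 474 miRNAs were higher and 4.22% lower at an adjusted p under 0.05, with a median of 0.33, and the members lay at 0.37, 0.065, 0.17 and −0.049 relative to it. Over the other alternatives their adjusted p went up to 0.729, 0.684, 0.888 and 0.638. The causes were not tested. Signal over background limits the opposite arms, which lie near or under the floor.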
